A study of Homo sapiens with 8 samples.

Results

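The genes described here are 10 transcripts whose synthesis is driven by the mitogen-activated kinase ERK and whose products, for the most part, act back on that pathway: the phosphatases *DUSP4*, *DUSP5* and *DUSP6*, the Sprouty genes *SPRY2* and *SPRY4*, the Sprouty-related genes *SPRED1* and *SPRED2*, and the ETS transcription factors *ETV1*, *ETV4* and *ETV5*. They were chosen by name, as a recognised set of ERK feedback and output genes, and were 10 of 58051 genes in the count tables. All 10 were among the 17671 genes with enough reads to be tested. RNA was sequenced from the A375 human melanoma cell line, an established line that carries an activating *BRAF* mutation. The 4 wild-type lines WT1, WT2, WT3 and WT4 were each grown out from a single A375 cell, so that every line is 1 clone, and all were kept in DMEM medium. Each line gave 1 library after 12 h with 10% fetal bovine serum (FBS) and 1 library after 12 h in the same medium with 0% FBS, for 8 libraries in all and with no repeat library of any line in either condition. The files of both WT4 libraries bear a different line name, so that WT4 is known by its label only. The series was made to look for secreted factors that may act on contacts between melanoma cells when serum is withdrawn.

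In the ERK cascade, growth factor receptors load RAS with GTP, RAS recruits RAF kinases, RAF phosphorylates MEK and MEK phosphorylates ERK. Active ERK enters the nucleus and induces, among others, the genes of its own inhibitors: dual-specificity phosphatases remove the activating phosphates from ERK, while Sprouty and SPRED proteins act further upstream, SPRED proteins by bringing the RAS-inactivating protein neurofibromin to the membrane. The ETV factors of the PEA3 family are transcribed in response to ERK and carry its signal on to other genes, and in melanoma cells with mutant *BRAF* the whole group is commonly read as a measure of pathway output.

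Serum withdrawal did not move these genes together. *SPRY4* stood 2.02-fold higher without serum (95% interval 1.83 to 2.23), *ETV1* 1.51-fold higher (1.38 to 1.64), *ETV5* 1.29-fold higher (1.18 to 1.40) and *ETV4* 1.25-fold higher (1.15 to 1.36), in a model that compared each line with itself. The *ETV4* call was lost after correction for GC content, with a log2 fold change of 0.03 in place of 0.32. *SPRY2* was lower by a small margin, at 0.897-fold of its level with serum (0.831 to 0.969). *DUSP4*, *DUSP5*, *DUSP6*, *SPRED1* and *SPRED2* did not pass the test. In total 5 of the 10 genes passed with the line as a block, 4 of them higher and 1 lower, where 45.7% of all tested genes passed, 23.2% higher and 22.4% lower. The share of the feedback genes that changed was therefore near that of all genes. Without the line in the model 2 of the 10 passed, *ETV1* and *ETV5*, against a background of 25.1% of all genes, and the median log2 change was 0.11 over the 10 genes and 0.03 over all genes. These tests used the quasi-likelihood method of edgeR with Benjamini-Hochberg adjustment over all 17671 genes, and a gene was called at an adjusted p under 0.05. With 1 library for each line and condition, the p-values of the model without the line measure the spread between these clones. Those with the line as a block measure how far the change differed between lines, together with variation between libraries. In bulk RNA a lower level per cell cannot be told apart from fewer cells that make the transcript.

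**Figure D1:**
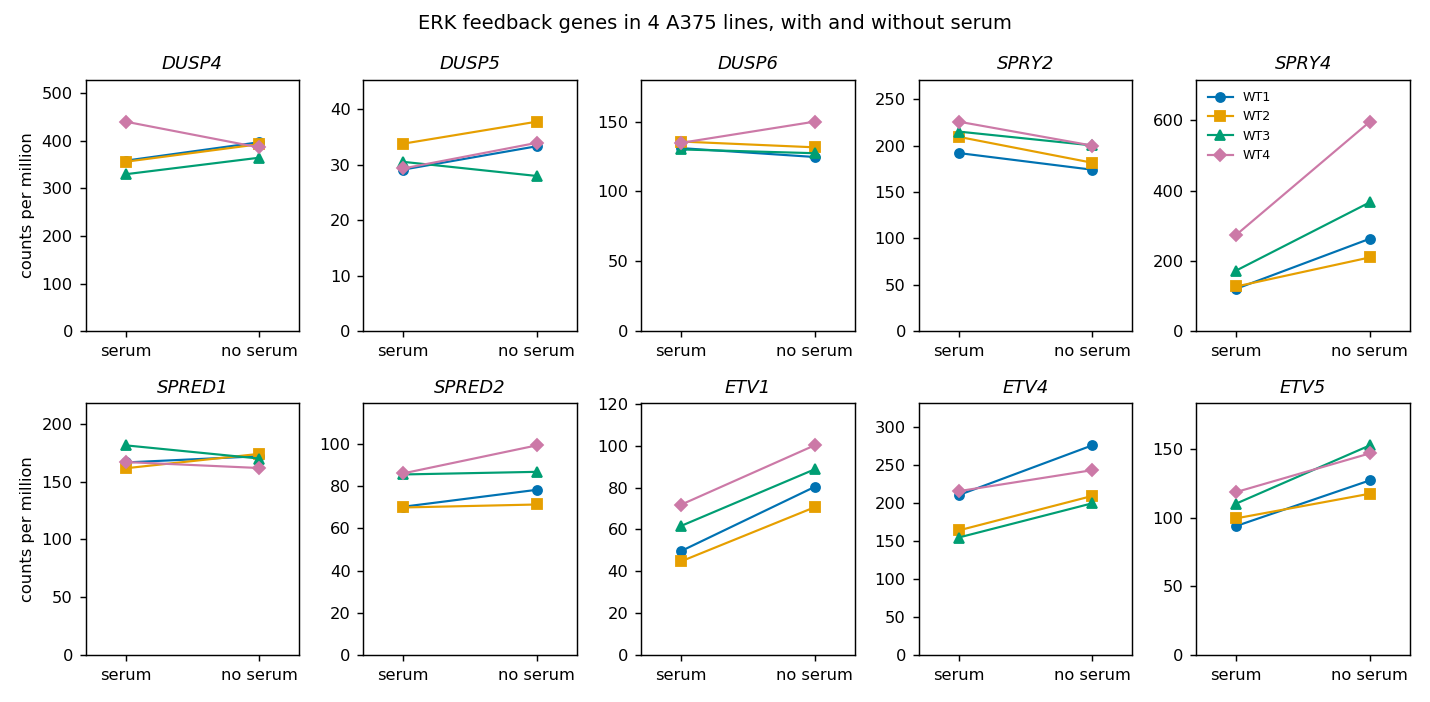
Level in CPM, the read count scaled to a common library size (vertical axes, each from 0), of the 10 ERK feedback genes with and without serum, with 1 point per library and a line joining the 2 libraries of each A375 line. The *SPRY4*, *ETV1*, *ETV4* and *ETV5* lines all slope upward and the *SPRY2* lines all slope downward, whereas the *DUSP4*, *DUSP5*, *DUSP6* and *SPRED1* lines cross or point both ways.

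The direction was also read line by line. The level was higher without serum in all 4 lines for 5 of the 10 genes, *SPRY4*, *SPRED2*, *ETV1*, *ETV4* and *ETV5*, where 28.8% of all tested genes were higher in all 4 lines. It was lower in all 4 lines for 1 gene, *SPRY2*, where 26.6% of all genes were. The other 4 genes went up in some lines and down in others. For none of the 10 did the 4 libraries with serum and the 4 without separate completely, whereas 27.5% of all genes did so. A test for differences between the lines, with serum condition in the model, was passed by 5 of the 10 genes, *SPRY4*, *SPRED2*, *ETV1*, *ETV4* and *ETV5*, and by 22.9% of all genes.

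Promoter sequence was matched for 6 of the 10 genes, *DUSP6*, *SPRY2*, *SPRY4*, *SPRED1*, *SPRED2* and *ETV1*, in a RefSeq table for GRCh38.p14 that gives 250 bases before and 50 after each transcript start. Where the table held several starts of a gene the outermost was taken. The single *SPRY4* start in the table lies inside the gene, downstream of the outermost annotated start at 142325021, so that the window shown is not that of the outermost start. The 3 windows shown are those of the genes with the largest rises, *SPRY4* at chr5:142324198-142324497 and *ETV1* at chr7:13991376-13991675, and of *SPRY2*, which was lower, at chr13:80341077-80341376. All 3 genes lie on the minus strand, and each window is written 5′ to 3′ along the gene. Capitals mark a searched form of the octamer bound by Capicua (CIC), the repressor that ERK signalling relieves at the ETV genes.
ETV1: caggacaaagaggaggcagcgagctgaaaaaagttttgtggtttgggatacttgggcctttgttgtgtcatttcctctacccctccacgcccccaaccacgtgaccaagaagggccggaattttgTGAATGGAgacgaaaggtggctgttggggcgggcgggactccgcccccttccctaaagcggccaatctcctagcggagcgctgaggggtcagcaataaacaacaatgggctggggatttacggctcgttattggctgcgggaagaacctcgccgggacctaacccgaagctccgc
SPRY4: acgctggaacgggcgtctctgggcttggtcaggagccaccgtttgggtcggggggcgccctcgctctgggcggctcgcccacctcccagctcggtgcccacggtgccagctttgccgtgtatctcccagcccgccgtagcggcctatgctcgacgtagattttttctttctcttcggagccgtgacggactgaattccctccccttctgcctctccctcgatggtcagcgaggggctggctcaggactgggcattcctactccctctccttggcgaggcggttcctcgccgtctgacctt
SPRY2: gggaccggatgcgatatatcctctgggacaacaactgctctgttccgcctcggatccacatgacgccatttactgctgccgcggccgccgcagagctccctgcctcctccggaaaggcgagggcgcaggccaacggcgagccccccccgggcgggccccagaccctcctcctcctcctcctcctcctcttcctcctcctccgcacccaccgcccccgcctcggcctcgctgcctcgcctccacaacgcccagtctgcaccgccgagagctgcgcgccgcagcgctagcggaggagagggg
The Capicua octamer, searched as TGAATGAA or TGAATGGA on both strands, began 125 bases before the start of *ETV1*. It was in none of the other 5 windows and in 2.613% of 34943 promoter windows. The ETS site CCGGAAG, in this exact form (10.21% of all windows), was found in none of the 6 windows. The AP-1 site TGANTCA (7.724%), the forkhead site GTAAACA (3.42%) and the EGR1 site GCGTGGGCG (0.7956%) were absent from them too. Shorter or variant forms of these sites were not searched. The cAMP response site TGACGTC (3.431%) was found once, in *SPRED2*. The SP1 site GGGCGGG (33.02%) was found in *ETV1* (2 overlapping matches) and once in *SPRY2*. The *SPRY4* window held none of these motifs, which says only that the letters are not in this window. These are matches of letters in 300-base windows, and they say nothing about binding in these cells.

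Levels were compared between genes as RPKM, that is CPM divided by the exon length of the gene in kilobases, given as mean ± SD over the 4 lines. With serum *SPRY2* had the highest level, 65.6 ± 4.40, followed by *ETV4* at 52.8 ± 8.90 and *DUSP4* at 51.0 ± 6.59. The range of *ETV4* over the lines overlapped those of both *SPRY2* and *DUSP4*. *DUSP6* at 34.4 ± 0.717 lay below all libraries of *DUSP4* and had the tightest spread of the set with serum. *SPRY4* at 26.5 ± 10.8 had the widest spread and overlapped both *DUSP6* above it and *SPRED1* (21.8 ± 1.10) below it. *ETV5* (18.3 ± 1.91), *SPRED2* (14.2 ± 1.65), *DUSP5* (12.1 ± 0.851) and *ETV1* (5.94 ± 1.27) followed. Of these, *DUSP5* overlapped *SPRED2*, and the other 3 each lay below the gene before it in every library. All 10 genes were above the median of 17425 genes of known length, 2.75 RPKM with serum and 2.93 RPKM without. Without serum the upper part of the order changed: *ETV4* (65.9 ± 9.86) stood in place 1, *SPRY2* (58.8 ± 4.13) in place 2 and *SPRY4* (54.7 ± 26.1) moved from place 5 to place 3, with overlapping ranges among these 3 genes. *DUSP5* and *ETV1* remained the 2 lowest, *ETV1* at 8.86 ± 1.31 RPKM.

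**Figure D2:**
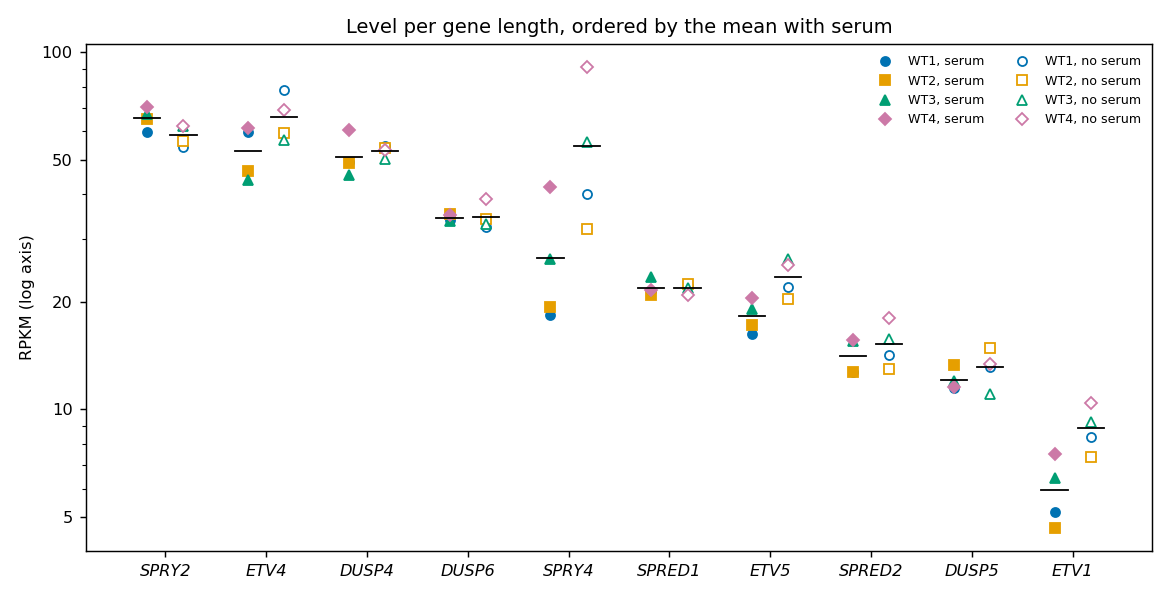
Level of each gene in RPKM on a log axis, ordered by the mean with serum, with filled symbols for libraries with serum, open symbols for libraries without and bars for the mean of the 4 lines. *SPRY4* spans 18.4 to 41.8 RPKM with serum and 32.0 to 90.9 RPKM without, whereas *DUSP6* and *SPRED1* keep within a narrow band in both conditions.

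The 3 dual-specificity phosphatases did not pass the test in either model. *DUSP6* (chromosome 12, 89347235 to 89352501, minus strand, GRCh38), a cytoplasmic phosphatase selective for ERK and the member most often used as a gauge of ERK activity, stood at 131, 136, 130 and 135 CPM in WT1, WT2, WT3 and WT4 with serum. Without serum its levels were 125, 132, 127 and 150 CPM in the same order. WT1, WT2 and WT3 were slightly lower and WT4 was higher, which left means of 133 ± 2.77 and 133 ± 11.4 CPM (SD, n = 4). The log2 fold change was 0.01 ± 0.07 (SE) with an adjusted p of 0.966, and with the line as a block the 95% interval ran from -0.12 to 0.12. An antisense transcript, ENSG00000274021, shares 1105 of the 3859 exon bases of *DUSP6* but had between 0.444% and 1.15% as many reads.

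*DUSP4* (chromosome 8, 29333064 to 29350684, minus strand), a nuclear phosphatase of ERK and other MAP kinases, was well covered, with 12502 to 30026 reads per library. With serum it stood at 358, 356, 330 and 440 CPM in WT1 to WT4, and without serum at 397, 393, 365 and 386 CPM. WT4 held the highest value with serum and was the only line to go down, by 0.19 on the log2 scale, while the other lines were higher by 0.14 to 0.15. The mean went from 371 ± 47.9 to 385 ± 14.5 CPM, with a log2 fold change of 0.05 ± 0.09 and an adjusted p of 0.698. The call depended on WT4: with the line as a block and both WT4 libraries left out, the log2 fold change of *DUSP4* was 0.15 with an adjusted p of 0.00425, and with WT4 kept it was 0.06 with an adjusted p of 0.451.

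*DUSP5* (chromosome 10, 110497907 to 110511533, plus strand), the nuclear phosphatase that holds ERK in the nucleus, was the phosphatase with the fewest reads. Its levels were 29.1, 33.8, 30.5 and 29.3 CPM with serum and 33.3, 37.7, 27.9 and 33.9 CPM without. WT3 was the single line in which it went down. The log2 fold change was 0.12 ± 0.10, with an adjusted p of 0.426 and a 95% interval of -0.11 to 0.34.

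The 2 Sprouty genes went opposite ways. *SPRY4* (chromosome 5, 142310430 to 142325021, minus strand), an inhibitor of receptor signalling to RAS and RAF, stood at 121, 127, 173 and 274 CPM in WT1 to WT4 with serum. Without serum it stood at 263, 210, 367 and 596 CPM. It rose most in WT1, WT3 and WT4, with log2 changes of 1.12, 1.09 and 1.12, and rose less in WT2, with 0.72. WT4 was the highest line in both conditions, and its level with serum exceeded those of WT1 and WT2 without serum. With this spread between lines, the test that ignored the line gave a log2 fold change of 1.05 ± 0.39 and an adjusted p of 0.0890, which was not past the threshold. With each line compared with itself the log2 fold change was 1.01 ± 0.07 and the adjusted p was 9.60e-08, and this call held when any 1 line was left out (log2 fold changes of 0.98 to 1.11). Across the lines *SPRY4* differed by 2.58-fold between the highest and the lowest line, with an adjusted p of 3.89e-07. The antisense transcript *SPRY4-AS1*, which shares no exon base with it, had from 12 to 82 reads per library.

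*SPRY2* (chromosome 13, 80335976 to 80341126, minus strand), the best studied Sprouty inhibitor of RAS and ERK signalling, stood at 192, 210, 215 and 226 CPM with serum. Without serum it stood at 174, 182, 200 and 200.1 CPM, lower in each of the 4 lines but by only 0.10 to 0.21 on the log2 scale. The groups overlapped, since WT1 with serum lay below WT3 and WT4 without. The log2 fold change was -0.16 ± 0.07 with an adjusted p of 0.153 when the line was ignored, and -0.16 ± 0.05 with an adjusted p of 0.0226 with the line as a block. The blocked call was lost without the WT1 libraries or without the WT2 libraries, at log2 fold changes of -0.16 (adjusted p = 0.0882) and -0.14 (adjusted p = 0.130). It was lost too with upper-quartile scaling, at -0.09 (adjusted p = 0.162). The change was also small next to the scaling of the libraries: when the TMM factors were left out, the median of all genes shifted by 0.12 and *SPRY2* stood at -0.04, which is -0.15 relative to that shift.

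The SPRED genes did not pass the test. *SPRED1* (chromosome 15, 38252836 to 38357249, plus strand), the partner of neurofibromin that is lost in Legius syndrome, was at 167, 162, 181 and 167 CPM with serum and at 172, 174, 170 and 162 CPM without. It went up in WT1 and WT2 and down in WT3 and WT4, and its means were 169 ± 8.54 and 169 ± 5.38 CPM. Its log2 fold change was 0.00 ± 0.06 with an adjusted p of 0.981, and with the line as a block the 95% interval ran from -0.11 to 0.12. *NF1*, which encodes neurofibromin, was at 184 ± 22.9 and 175 ± 9.85 CPM, a log2 fold change of -0.08 with an adjusted p of 0.600.

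*SPRED2* (chromosome 2, 65307175 to 65432599, minus strand), its nearest relative in the set, was at 70.2, 69.9, 85.5 and 86.0 CPM with serum. Without serum it was at 78.3, 71.3, 86.8 and 99.3 CPM. All 4 lines were higher, but WT2 and WT3 by only 0.03 and 0.02 on the log2 scale. The log2 fold change of 0.11 ± 0.12 had an adjusted p of 0.537. With the line as a block *SPRED2* stood at 0.10 (adjusted p = 0.163). In that model it passed with upper-quartile scaling (0.17, adjusted p = 0.0265) and turned to -0.04 after GC correction (adjusted p = 0.491). Here the line accounted for more of the variation than in any other member: WT3 and WT4 were above WT1 and WT2 in both conditions, and the difference between lines had an adjusted p of 0.00689.

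**Figure D3:**
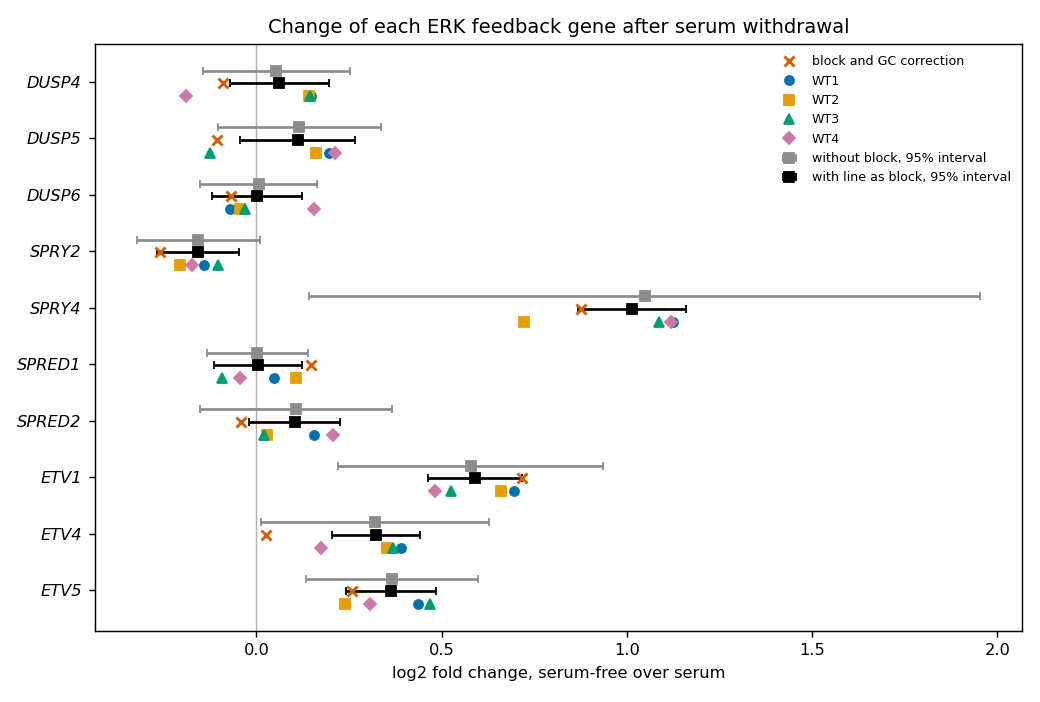
Log2 fold change of each gene without serum over with serum, with grey squares for the model without the line, black squares for the model with the line as a block, bars for 95% intervals, crosses for the block with GC correction and coloured symbols for the single lines. The *SPRY4* interval narrows from 0.14 to 1.95 without the block to 0.87 to 1.16 with it, and the *ETV4* cross lies at 0.03, far from its black square at 0.32.

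All 3 ETV genes were higher without serum in every line. *ETV1* (chromosome 7, 13891229 to 13991425, minus strand), an ETS factor of the PEA3 family that acts with ERK signalling in melanocytic and other tumours, stood at 49.6, 44.7, 61.7 and 71.8 CPM with serum and at 80.3, 70.6, 88.7 and 100.2 CPM without. Only WT4 with serum and WT2 without serum overlapped, by about 1 CPM. The log2 changes by line were 0.69, 0.66, 0.53 and 0.48 in WT1 to WT4. For *ETV1* the log2 fold change was 0.58 ± 0.16 with an adjusted p of 0.0269 when the line was ignored, and 0.59 ± 0.06 with an adjusted p of 3.00e-06 with the block. *ETV1* was the lowest of the 10 per length.

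*ETV5* (chromosome 3, 186046314 to 186109089, minus strand), a PEA3 factor induced by growth factors of the FGF family, stood at 93.9, 99.4, 110 and 119 CPM with serum. Without serum it stood at 127, 117, 153 and 147 CPM, and WT4 with serum and WT2 without serum again overlapped. The log2 fold change was 0.37 ± 0.10 with an adjusted p of 0.0287, and 0.36 ± 0.06 with an adjusted p of 1.29e-04 with the block. The gene *DGKG* on the same strand shares 164 exon bases with it and had a log2 fold change of -0.06 with an adjusted p of 0.861.

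The calls of *ETV1* and *ETV5* in the model without the line were near the threshold. Leaving out 1 library or 1 line at a time gave 12 fits, of which *ETV1* passed 4 and *ETV5* passed 3. The calls of both were lost without any of the libraries with serum of WT1, WT2 and WT3, without any of the libraries without serum of WT1, WT3 and WT4, and without both libraries of WT1 or of WT3, with log2 fold changes from 0.48 to 0.62 for *ETV1* and from 0.30 to 0.39 for *ETV5* in these fits. *ETV5* alone was also lost without both WT2 libraries, at 0.40. With the line as a block both genes passed whichever line was left out, with log2 fold changes of 0.55 to 0.63 and of 0.32 to 0.40. The WT1 and WT2 libraries with serum had the highest shares of reads placed at more than 1 position, 22.7% and 16.8% against 5.73% to 10.1% in the other 6. Without these 2 libraries *ETV1* had a log2 fold change of 0.34 (adjusted p = 0.181) and *ETV5* of 0.24 (adjusted p = 0.248). These fits ignored the line and set WT3 and WT4 with serum against all 4 lines without serum. Within WT3 and WT4 the log2 changes were 0.53 and 0.48 for *ETV1*, and 0.47 and 0.31 for *ETV5*. The part of reads placed at more than 1 position in the result was not tested.

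*ETV4* (chromosome 17, 43527846 to 43546340, minus strand), the remaining PEA3 factor, stood at 210.0, 164, 154 and 215 CPM in WT1 to WT4 with serum. Without serum it stood at 275, 209, 199 and 243 CPM. Here WT1 and WT4 were the high lines, unlike *ETV1* and *ETV5*, and both with serum lay above WT2 and WT3 without. WT4 had the smallest change, 0.17 on the log2 scale, against 0.35 to 0.39 in the other lines. The log2 fold change was 0.32 ± 0.14 with an adjusted p of 0.119 when the line was ignored, and 0.32 ± 0.06 with an adjusted p of 2.78e-04 with the block. *DHX8*, on the opposite strand with 68 shared exon bases, had a log2 fold change of 0.05 and an adjusted p of 0.804.

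The call of *ETV4* also moved with base composition. Among 17425 genes, transcripts richer in GC tended to have the higher log2 fold changes (Spearman rho = 0.36, a description across genes, which are not replicates). *ETV4* had the highest GC content of the 10 genes, 60.6%. After correction for GC content within the blocked model its log2 fold change was 0.03 with an adjusted p of 0.641. *SPRY4* (0.88, adjusted p = 1.16e-07), *ETV1* (0.72, adjusted p = 2.17e-06), *ETV5* (0.26, adjusted p = 5.17e-04) and *SPRY2* (-0.26, adjusted p = 1.33e-04) passed in the corrected model too. *SPRED1*, with the lowest GC content at 36.3%, passed only there, at 0.15 with an adjusted p of 0.0462. The corrected model thus called 5 of the 10 genes (4 higher and 1 lower) where it called 47.3% of all genes, 16.4% higher and 30.9% lower.

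The variation of each gene over the 8 libraries was divided between serum condition, line and remainder on the log2 CPM scale. Serum condition took the larger part for *ETV1* (62.3%) and *ETV5* (62.0%). For *SPRY4* serum condition took 48.7% and line nearly all the rest, with 1.34% left over. For *SPRY2* (45.0% and 52.3%) and *ETV4* (39.6% and 57.6%) the larger part went with line. The line has more levels than serum condition, so it takes a larger share even where neither matters. *SPRY2* did not pass the test for differences between lines (adjusted p = 0.128). Neither did *DUSP6* (adjusted p = 0.398), although line took 65.1% of its variation. In *SPRED2* the line took 85.3% and serum condition 9.14%. *DUSP6* and *SPRED1* had 0.016% and 0.11% with serum condition. A remainder of 25.2% to 56.0% in *DUSP4*, *DUSP5*, *DUSP6* and *SPRED1*, against at most 5.55% in the other 6, stood beside lines that went opposite ways.

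**Figure D4:**
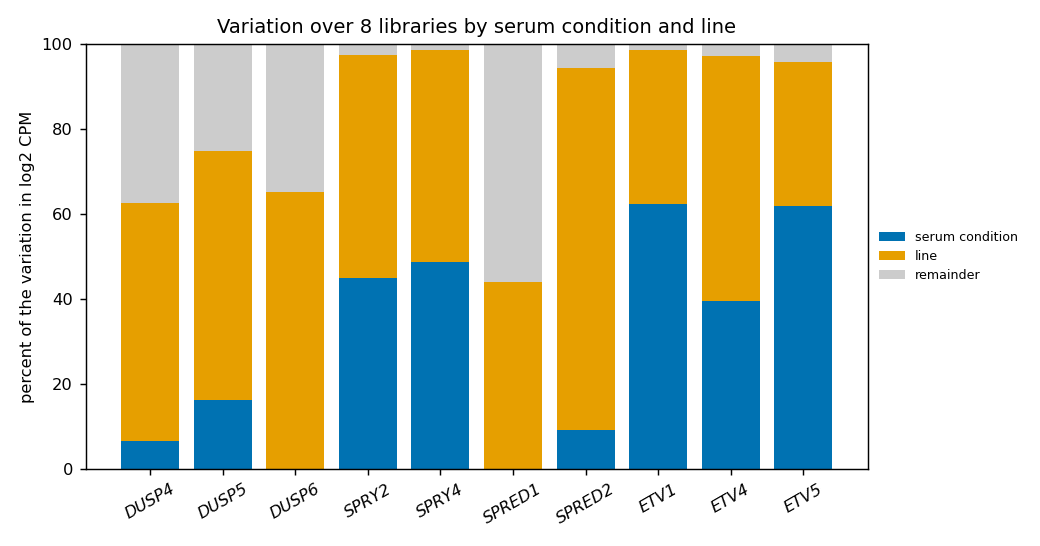
Share of the variation in log2 CPM over the 8 libraries, in percent, that went with serum condition (blue), line (orange) and neither (grey) for each gene. Serum condition takes 62.3% in *ETV1* and 62.0% in *ETV5*, and 0.016% in *DUSP6*.

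The genes fell into a group that varied together and others that did not. Over the 8 libraries, which share lines and conditions, the Pearson correlation of log2 CPM ran from -0.62 to 0.96 over the 45 pairs, with a median of 0.17. The 4 pairs above 0.8 were *SPRY4* with *ETV1* (0.96), *ETV1* with *ETV5* (0.95), *SPRY4* with *ETV5* (0.94) and *SPRY4* with *SPRED2* (0.86). *ETV4* was less like its relatives, with 0.61 for *ETV1* and 0.46 for *ETV5*, and 16 pairs were below 0, including *SPRY2* with *ETV4* (-0.60) and *DUSP6* with *SPRED1* (-0.62). Among 12624 genes with a mean of at least 100 reads, the 2 most like *SPRY4* over the 8 libraries were *TANC2* and *EGR1*, both with r = 0.991. For *ETV1* they were *RARG* (0.996) and *ZFTA* (0.994), for *ETV5* *ERBB3* (0.985) and *TLN1* (0.983), and for *ETV4* *IFNLR1* (0.973) and *METTL21A* (0.970). *DNAJC5* (0.966) and *TMEM222* (0.962) were most like *SPRY2*. *H1-10* and *TEDC2-AS1* were most like *DUSP4* (0.981 and 0.979), *SDR39U1* and *DPY19L2P2* most like *DUSP5* (0.976 and 0.955), and ENSG00000259977 and *XPNPEP1* most like *DUSP6* (0.911 and 0.907). *UNC119B* and *PLEKHG3* were most like *SPRED1* (0.911 and 0.896), and *KCNC4* and *COL19A1* most like *SPRED2* (0.982 and 0.979). These are the highest of 12624 correlations over 8 libraries that share lines and conditions. Even *DUSP6* and *SPRED1*, whose changes were near 0, reached 0.911, so a high value is not particular to a pair.

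The nearest relatives of the 10 genes were also mixed. Of 10 paralogs 9 could be tested, and 1 was higher and 1 lower in the model without the line, or 3 higher and 2 lower with it, where 11.1% of all genes were higher and 14% lower without the line, and 23.2% higher and 22.4% lower with it. After GC correction of the blocked model 2 paralogs were higher and 5 lower, where 16.4% of all genes were higher and 30.9% lower. *DUSP7*, a cytoplasmic ERK phosphatase close to *DUSP6*, fell from 77.8 ± 4.49 to 59.3 ± 5.91 CPM, with a log2 fold change of -0.39 and an adjusted p of 0.00882. *SPRY3* rose from 1.53 ± 0.243 to 2.51 ± 0.565 CPM (log2 fold change 0.72, adjusted p = 0.0378). *SPRY1* was at 12.1 ± 2.69 and 10.1 ± 1.83 CPM, with an adjusted p of 0.328, or of 0.0308 with the block. *SPRED3* was at 15.5 ± 3.19 and 18.5 ± 5.19 CPM (adjusted p = 0.0342 with the block, and 0.801 after GC correction). *DUSP1*, an immediate-early phosphatase of several MAP kinases, was at 12.7 ± 1.44 and 14.1 ± 1.86 CPM with an adjusted p of 0.409.

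Among the 13 genes of the RAS-RAF-MEK-ERK core, 3 fell and 0 rose in the model without the line (4 fell and 2 rose at an unadjusted p under 0.05 in edgeR, and DESeq2 called 4), and 5 fell and 2 rose with it. Over all genes 14% were lower and 11.1% higher without the line, and 22.4% lower and 23.2% higher with it. The GC-corrected block gave 9 lower and 1 higher, against 30.9% and 16.4% of all genes. The median log2 change of this list was -0.11 without the line and -0.16 in the corrected model. *YWHAB*, a 14-3-3 protein that binds RAF, fell from 633 ± 27.6 to 471 ± 29.98 CPM (log2 fold change -0.43, adjusted p = 0.00255). *NRAS* fell from 138 ± 18.6 to 103 ± 5.84 CPM (-0.42, adjusted p = 0.0143), and *SHOC2*, a scaffold that promotes RAF activation, had a log2 fold change of -0.30 with an adjusted p of 0.0275. *BRAF* was at 40.9 ± 2.46 and 40.1 ± 2.71 CPM with an adjusted p of 0.804.

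The 13 RAS regulators and adaptors gave 2 higher and 4 lower genes without the line, and 2 higher and 6 lower with it, where 25.1% and 45.7% of all genes were called. With GC correction there were 2 higher and 7 lower, where 47.3% of all genes were called. *GRB2*, the adaptor that couples receptors to SOS, had a log2 fold change of -0.30 (adjusted p = 0.00475). *FRS2*, the docking protein of FGF receptors, fell from 57.4 ± 8.52 to 40.9 ± 3.65 CPM (-0.49, adjusted p = 0.0136), and *RASA2*, a RAS GTPase-activating protein, had a log2 fold change of -0.30 (adjusted p = 0.0177). The docking protein gene *GAB1* had a log2 fold change of 0.44, with an adjusted p of 0.0137. *LZTR1*, which directs RAS proteins to degradation, rose by 0.38 (adjusted p = 0.0127), although its log2 fold change after GC correction was 0.06 with an adjusted p of 0.443.

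Other genes whose RNA commonly follows ERK activity went both ways. Of 10 such genes 0 passed in the edgeR model without the line, where 25.1% of all genes did. At an unadjusted p under 0.05 there were 3, 1 higher and 2 lower. At least 6497 of the 17671 tested genes were under it in that model. DESeq2 called 3 (and 5314 of all genes). With the line as a block 3 rose and 5 fell, where 45.7% of all genes were called. Correction for GC content gave 3 higher and 6 lower, where 47.3% of all genes were called. *EGR1*, an immediate-early transcription factor, had the pattern most like *SPRY4* after *TANC2* and went from 14.8 ± 7.86 to 35.7 ± 25.4 CPM, with a log2 fold change of 1.28 and an adjusted p of 0.135, or of 1.16 with an adjusted p of 7.29e-07 with the block. *CCND1*, which encodes cyclin D1, went from 824 ± 124 to 555 ± 144 CPM, with an adjusted p of 0.0559, or of 5.06e-06 with the block. *PHLDA1* was at 458 ± 80.3 and 547 ± 195 CPM, with an adjusted p of 0.466 and of 0.0247 with the block.

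Of the 15 nuclear effectors of ERK and regulators of the ETV proteins, 1 rose and 1 fell without the line, and 6 rose and 2 fell with it, where 25.1% and 45.7% of all genes were called. The balance turned after GC correction, with 3 higher and 6 lower, where 16.4% of all genes were higher and 30.9% lower. *ATXN1*, whose product forms a complex with Capicua, went from 13.9 ± 4.56 to 27.6 ± 10.3 CPM, with a log2 fold change of 0.99 and an adjusted p of 0.0402. *CIC* itself was at 145 ± 28.0 and 178 ± 9.88 CPM, with an adjusted p of 0.110 without the line and 0.00228 with it, and with a log2 fold change of -0.08 (adjusted p = 0.172) after GC correction. *RPS6KA3*, the ERK-activated kinase RSK2, fell by 0.47 on the log2 scale (adjusted p = 0.0115).

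**Figure D5:**
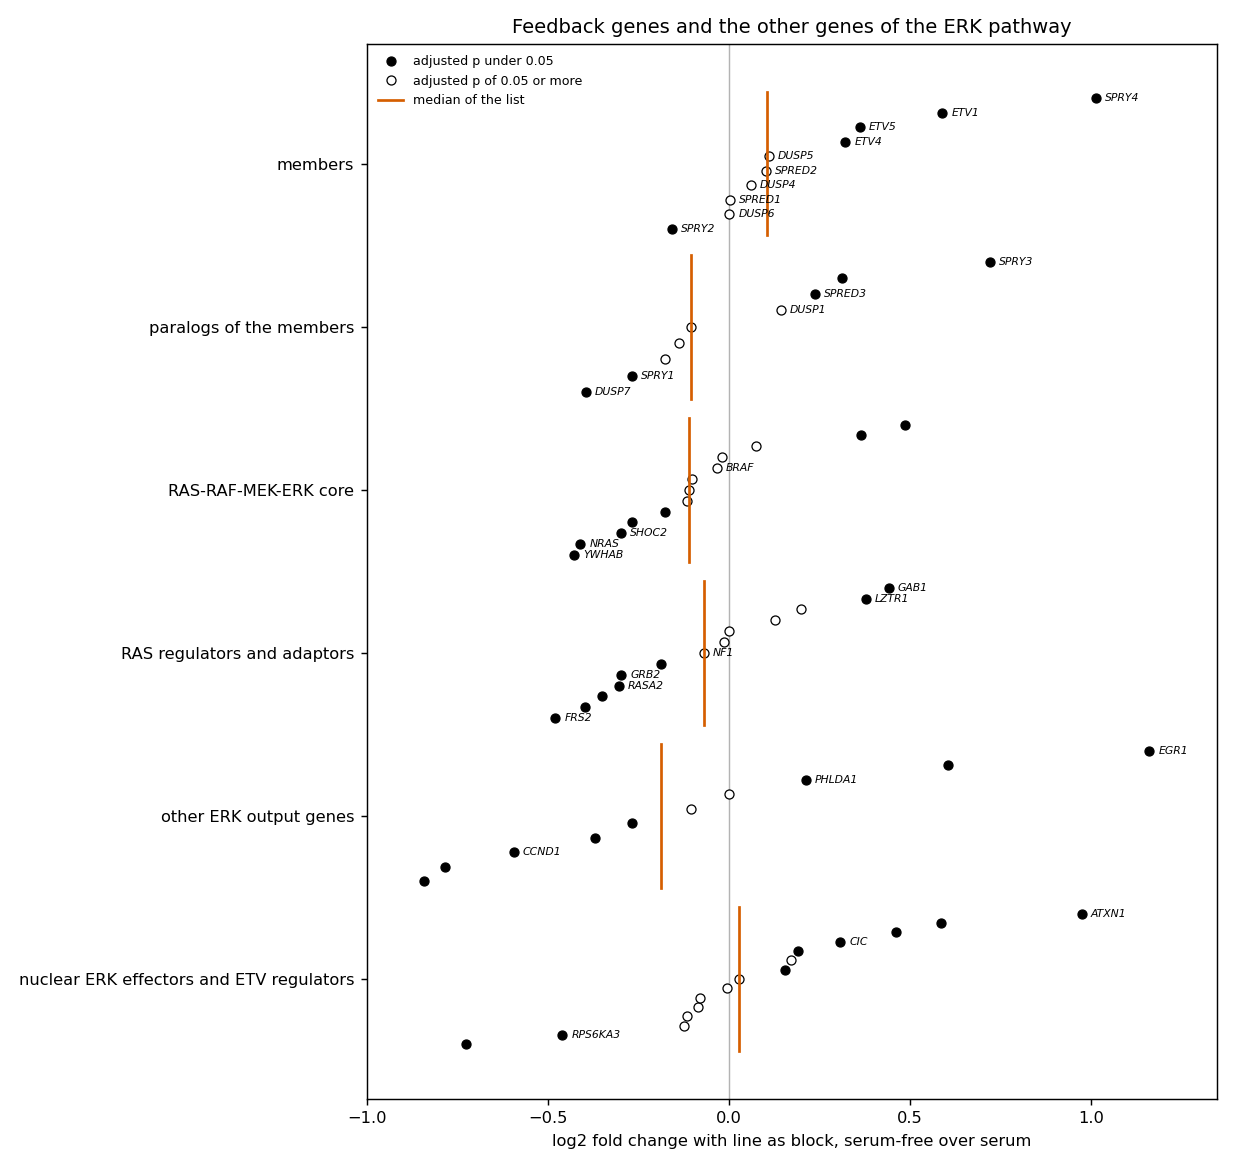
Log2 fold change without serum over with serum, with the line as a block, for the 10 feedback genes and 5 lists of other ERK pathway genes, with filled points for an adjusted p under 0.05, open points for the rest and orange bars for the median of each list. The feedback genes span -0.16 (*SPRY2*) to 1.01 (*SPRY4*) around a median of 0.11, and every list holds genes on both sides of 0.

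Reads assigned to genes ran from 29759279 to 73341551 per library, with a median of 42781952.5, so that the least counted of the 10 genes, *DUSP5*, still had 832 reads in its lowest library. The libraries were checked against markers of the labelled cell type. The melanocyte factor *SOX10* was listed at 0 reads in every library, in counts that leave out ambiguous reads. *PMEL* lay at 0.714 CPM with serum and 0.485 CPM without, and *MLANA* at 0.953 and 1.01 CPM. *MITF* was at 40.2 CPM with serum and 33.1 CPM without, and *S100B* at 18.9 and 23.2 CPM. With serum *AXL* was at 590 ± 83.0 CPM, *VIM* at 1215 ± 120.2 CPM and *NES* at 297 ± 55.5 CPM. The 13 melanocyte and melanoma markers summed to 2015 to 2370 CPM with serum and 1760 to 2124 CPM without, with 10 tested, 1 higher (*S100A1*, adjusted p = 0.00605) and 1 lower (*MITF*, adjusted p = 0.0496) without the line, where 25.1% of all genes were called. With the line as a block 2 were higher and 4 lower, *AXL* (-0.35, adjusted p = 5.88e-04), *VIM* (-0.16, adjusted p = 0.0159) and *DCT* (-0.89, adjusted p = 0.0251) among the lower, and after GC correction 1 was higher and 6 lower, where 45.7% and 47.3% of all genes were called. Markers of other cell types summed to 15.2 to 21.9 CPM with serum and 12.7 to 21.8 CPM without, most of it keratin *KRT14*, with *HBB* and *ALB* at 0 reads, and of the 3 tested 0 passed in edgeR without the line (0 also at an unadjusted p under 0.05) and 0 with it. After GC correction *KRT14* was lower (log2 fold change -0.47, adjusted p = 3.61e-04). The part of these markers in the results was not tested.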

How the data were processed

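RNA was depleted of ribosomal RNA and sequenced as paired reads. The authors deposited whole-number counts of reads per gene, not normalized, made per the submitters' processing notes with cutadapt, TopHat2 2.0.11 and HTSeq on GRCh38. The study's methods name Tophat on hg19 for FPKM values that were not used here. The annotation release and strand setting are not given in the sources used here, so sense and antisense reads cannot be told apart. Rows that name no gene held 16.1% to 31.0% of the reads listed and were removed. These were ambiguous and not uniquely aligned reads only, since the row for reads outside genes is listed at 0 in every library.

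The filterByExpr function chose the genes to test, TMM factors scaled the libraries and the tests were run in edgeR 4.0.16 (R 4.3.3, limma 3.58.1, DESeq2 1.42.0 as an alternative), serum-free against serum, without and with the line as a block. Pairing came from the labels, which give the same line in both conditions. The deviations of same-line libraries correlated at 0.40 to 0.60, against at most 0.13 between lines. P-values were adjusted by Benjamini-Hochberg over all tested genes at 0.05. CPM used TMM-scaled library sizes, and log2 CPM a prior count of 2. The GC correction was a smooth with 6 degrees of freedom over 17425 of the tested genes (98.6%). For exon lengths and GC content the GENCODE annotation on GRCh37 was used, although the counts are on GRCh38, and positions are those of RefSeq GRCh38. The procedure was tested on simulated data.

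The named genes are the 10 members, up to 3 genes past the threshold in each direction of every other list, and *NF1*, *CIC*, *BRAF*, *PHLDA1*, *CCND1*, *EGR1*, *SPRY1*, *SPRED3* and *DUSP1* whatever their values, with the 2 genes most like each member and those that overlap one. Other marker genes named were chosen after their values were seen. The members and lists were chosen with earlier results of these data known. Alternatives left out libraries or lines, changed the scaling, filter or tool, or dropped TMM. Each interval covers the spread between these libraries.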

Additional observations from a re-analysis of the deposited data

Results flagged for a closer look

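In 3 of 30 sets of 4 lines (each gene with serum, without serum and by change), 1 line lay apart from the others by more than the 95% critical value of Dixon's test, where chance gives about 1.5. For the change of *DUSP4*, WT4 (-0.19 on the log2 scale) was apart, with a ratio of gap to range of 0.983. For *DUSP5*, WT3 (-0.13) was apart, with a ratio of 0.849. For *SPRY4*, WT2 (0.72) was apart, with a ratio of 0.907. No line was apart in more than 1 gene.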

How the results depend on the processing

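With the line as a replicate block 8067 genes passed instead of 4434, 8236 with GC correction, 8016 with RLE scaling, 8042 with upper-quartile scaling, 7618 with DESeq2 and 8161 with limma voom. The block brought *SPRY2* (-0.16), *SPRY4* (1.01) and *ETV4* (0.32) past the threshold and changed no other member's call. So it did with RLE scaling (-0.17, 1.004 and 0.31), DESeq2 (-0.17, 1.004 and 0.31) and voom (-0.16, 1.01 and 0.32). With upper-quartile scaling *SPRY4* (1.08), *ETV4* (0.39) and *SPRED2* (0.17) passed, and *SPRY2* did not. With GC correction *SPRY2* (-0.26), *SPRY4* (0.88) and *SPRED1* (0.15) passed, while *DUSP4* (-0.090), *DUSP5* (-0.11), *DUSP6* (-0.069) and *SPRED2* (-0.042) turned negative without passing.

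The changes of *DUSP6* and *SPRED1* were within their errors of 0, and their signs turned with RLE scaling (-0.0046 and -0.0064), DESeq2 (-0.0044 and -0.0064) and no count filter (-6.2e-05 and -0.0028), and in the block with RLE scaling (-0.0078 and -0.0057) and DESeq2 (-0.0078 and -0.0056). Without the WT1 and WT2 serum libraries 1098 genes passed, *DUSP4* (-0.0036), *SPRED1* (-0.045) and *SPRED2* (-0.037) turned negative, *ETV1* (0.34) and *ETV5* (0.24) lost their calls, and *SPRY4*, not called without the block, stood at 0.68 in place of 1.05 (adjusted p = 0.441). That setting left only WT3 and WT4 with serum, against all 4 lines without. Within WT3 and WT4 *SPRY4* changed by 1.09 and 1.12. That setting, the block without single lines and the block with other scalings or tools were chosen after seeing the data.

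Leaving out 1 library or line without the block gave 1589 to 6128 genes. The log2 changes ran from 0.00034 to 0.15 for *DUSP4*, 0.050 to 0.18 for *DUSP5*, -0.054 to 0.032 for *DUSP6*, -0.20 to -0.12 for *SPRY2*, 0.69 to 1.36 for *SPRY4*, -0.032 to 0.037 for *SPRED1*, 0.018 to 0.18 for *SPRED2*, 0.48 to 0.71 for *ETV1*, 0.22 to 0.40 for *ETV4* and 0.30 to 0.43 for *ETV5*. *SPRY4* passed in 2 of these fits, without WT4 or its serum library. With the block and without WT1, WT2, WT3 and WT4 in turn, *SPRY4* (0.98, 1.11, 0.98 and 0.98) and *ETV4* (0.30, 0.31, 0.29 and 0.37) passed. *SPRY2* passed without WT3 (-0.19) or WT4 (-0.15), *SPRED1* turned negative without WT1 (-0.012) or WT2 (-0.031), and without WT4 8938 genes passed, *DUSP4* among them (0.15), while *DUSP6* turned negative (-0.048).

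Without TMM the mean change over lines was 0.12 for *DUSP6*, -0.036 for *SPRY2*, 0.12 for *SPRED1*, 0.22 for *SPRED2*, 0.71 for *ETV1*, 0.44 for *ETV4* and 0.48 for *ETV5*, with all genes shifted by 0.12. By longest transcript *ETV4* took place 1 and *SPRY2* place 2 in the order of levels with serum, *ETV5* place 6 and *SPRED1* place 7. Leaving out a line, *DUSP4* ranged over places 2 to 3, *ETV4* 2 to 3, *SPRY4* 5 to 6 and *SPRED1* 5 to 6. The cause of these differences was not tested.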
